A study of Mus musculus with 56 samples.

Results

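The genes described here are Sprr1a, Sdcbp2, Cfd, Shc2, Ly6d and Insyn1, 6 of the 21935 genes in a table of liver read counts from 56 male C57BL/6J mice, 8 in each of 7 groups. They were selected on their measured values, as genes with some of the largest differences from DIO-MASH vehicle in earlier results of the same counts. Shc2 and Ly6d were chosen by the comparison of chow with vehicle, Sdcbp2 by those of the combination and high-dose zalfermin with vehicle, Cfd by that of the combination, Sprr1a by those of high-dose zalfermin and high-dose semaglutide, and Insyn1 by that of high-dose semaglutide. All 6 passed the filter on low counts (5 or more reads in 3 or more mice), as did 14105 genes in all. The differences from vehicle are therefore given as a description with no test, and tests are kept for comparisons in which neither group took part in choosing the gene.

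One group was fed chow and given vehicle. The other 6 groups, 48 mice, received AMLN food with much fat, fructose and cholesterol, a diet that gives obese mice a fatty, inflamed and fibrotic liver (diet-induced obese metabolic dysfunction-associated steatohepatitis, DIO-MASH). After 36 weeks of diet these mice were dosed under the skin once a day for 8 weeks with vehicle, zalfermin at 0.05 mg/kg (low dose) or 0.2 mg/kg (high dose), semaglutide at 3 µg/kg (low dose) or 120 µg/kg (high dose), or a combination. Zalfermin is an analog of the metabolic hormone FGF21 made to last in the circulation, and semaglutide activates the GLP-1 receptor. The study's methods give the combination as both low doses, whereas the design text deposited with the counts calls it that of both high doses, and the doses of the methods are used here. Each group is compared with a single vehicle group, the mice of a group are separate animals, and the model is 1 diet in 1 strain and sex. Mice are numbered 1 to 8 within a group by the order of their labels.

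These genes are known for work outside the hepatocyte. Sprr1a encodes a small proline-rich protein that is cross-linked into the cornified envelope of squamous epithelium and is also induced in injured neurons, and Ly6d encodes a GPI-anchored surface protein of stratified epithelium and of early B-lineage cells. Cfd encodes complement factor D (adipsin), the serine protease that cleaves factor B in the alternative complement pathway and is made chiefly by adipocytes. Shc2 encodes an adaptor that couples receptor tyrosine kinases to Ras, found mainly in neurons, Insyn1 encodes a component of the gephyrin scaffold of inhibitory synapses, and Sdcbp2 encodes syntenin-2, a PDZ-domain protein that binds membrane phosphoinositides.

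The genes lie on 5 chromosomes (GRCm38). Sprr1a is on the minus strand at chr3:92483952-92485895, Sdcbp2 on the plus strand at chr2:151572622-151590005, Ly6d on the minus strand at chr15:74762056-74763620 and Insyn1 on the plus strand at chr9:58488603-58499780. Shc2 (minus strand, chr10:79618051-79637918) and Cfd (plus strand, chr10:79890853-79892655) share a chromosome and lie 253 kb apart. Of the 14 genes between them that passed the filter, 3 were higher and 4 lower in DIO-MASH vehicle than in chow at an adjusted p under 0.05 (edgeR). Their log2 fold changes ran from −3.11 for Prtn3 to 2.11 for Fstl3. Of all 14105 genes tested, 4072 were higher and 3739 lower in vehicle, so such a mix is not particular to this stretch. Shc2 overlaps the opposite-strand gene Gm47163 by 63 bases, and whether strand was used in counting is not given in the sources used here.

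RefSeq promoters were matched for 5 of the 6 genes, all but Ly6d, and searched on both strands for the letters TGANTCA of the AP-1 factors, TATAAA of the TATA-type core promoter, GGGCGG of the GC box, AGGTCA of nuclear receptor sites, TTGCNNAA of the C/EBP factors and CACGTG of the E-box. The 250 bases before the RefSeq start are shown for Sprr1a and Sdcbp2, which hold the AP-1 letters, and for Cfd, whose values followed another course between mice and which holds none of the 6 motifs. Capitals mark TGAGTCA and TATAAA. The Sprr1a stretch is chr3:92485882-92486131 on the minus strand, that of Sdcbp2 chr2:151572373-151572622 on the plus strand and that of Cfd chr10:79890603-79890852 on the plus strand (GRCm38.p6).
Sprr1a: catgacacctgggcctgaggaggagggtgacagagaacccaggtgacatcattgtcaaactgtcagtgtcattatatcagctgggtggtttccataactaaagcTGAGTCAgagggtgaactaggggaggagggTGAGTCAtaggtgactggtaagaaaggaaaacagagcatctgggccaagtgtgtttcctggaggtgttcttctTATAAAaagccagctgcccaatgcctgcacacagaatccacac
Sdcbp2: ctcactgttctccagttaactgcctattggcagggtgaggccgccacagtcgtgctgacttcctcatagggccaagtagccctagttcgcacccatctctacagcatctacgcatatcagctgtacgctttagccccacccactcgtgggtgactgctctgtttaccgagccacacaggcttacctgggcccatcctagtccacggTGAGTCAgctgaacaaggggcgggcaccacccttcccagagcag
Cfd: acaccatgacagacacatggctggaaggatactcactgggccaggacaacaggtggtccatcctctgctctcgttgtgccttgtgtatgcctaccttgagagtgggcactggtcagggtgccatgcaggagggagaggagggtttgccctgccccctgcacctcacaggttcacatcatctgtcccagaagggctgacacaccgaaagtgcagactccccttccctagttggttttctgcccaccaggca
The Sprr1a promoter held TGAGTCA at positions −146 and −116 and TATAAA at −43, counted from the start, and the Sdcbp2 promoter held TGAGTCA at −44 and a GC box at −27. Shc2 had 1 GC box, at −173, and Insyn1 had none of the 6. Among all 32851 RefSeq promoters of 300 bases, 7.81% held the AP-1 letters, 13.6% the TATA letters, 35.7% the GC box, 16.3% the nuclear receptor letters, 10.8% the C/EBP letters and 7.15% the E-box. No motif of the search overlapped another in these promoters. These matches describe letters only, and no binding was measured.

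Reads counted on genes ran from 5228187 to 20885786 per mouse (median 12206788), so that 1 read was worth between 0.0479 and 0.191 CPM (reads scaled to library size) and 3 reads between 0.144 and 0.574 CPM. The library sizes carry edgeR's TMM factors. Levels well under 1 CPM thus rest on a handful of reads. The defining hepatocyte markers were abundant, with median Alb at 69066 CPM and Apoa1 at 8231 CPM.

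Some mice stood apart from their groups and bear on the values that follow. Chow mouse 8 had 14.8 CPM of Sdcbp2, while the other 7 chow-fed mice had 0 to 0.226 CPM. In the same liver Tff2, a trefoil peptide of gastric and duct mucus, stood at 1387 CPM against 0 to 0.270 CPM in the other 7, the keratin Krt19 at 156 CPM against 0.832 to 4.21 CPM, and Epcam at 90.1 CPM against 1.18 to 4.13 CPM. Not every duct marker followed to that degree. Krt7 was higher by less, at 5.17 CPM against 0.237 to 3.15 CPM. Spp1 did not follow, at 20.8 CPM, below the 24.8 to 49.4 CPM of the other 7. Sdcbp2 is given with and without this mouse. Low-dose semaglutide mouse 6 was the lowest of its group for Sprr1a (0 CPM), Sdcbp2 (0.117), Shc2 (0.117), Ly6d (1.41) and Insyn1 (0.117), and the third lowest for Cfd (3.05). Low-dose zalfermin mouse 1 was likewise lowest for the same 5 genes, with Cfd at 10.7 CPM, the second highest of its group. The study left out 1 low-dose semaglutide mouse in quality control, which the table does not mark, and all 56 mice are used here.

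Sprr1a was near 0 in chow-fed livers and at a few CPM in DIO-MASH livers. It measured 0 to 0.652 CPM in the chow-fed mice (median 0) and 2.07 to 8.07 CPM in DIO-MASH vehicle mice (median 4.78), and these ranges did not overlap. Low-dose zalfermin mice had 0.339, 2.17 and 10.4 CPM (lowest, median and highest), and low-dose semaglutide mice 0, 2.49 and 4.52 CPM, both overlapping vehicle. The remaining treated groups lay below every vehicle mouse. High-dose semaglutide mice had 0 to 1.25 CPM (median 0.565), combination mice 0 to 0.806 CPM (median 0.124) and high-dose zalfermin mice 0 to 0.302 CPM (median 0.0736), with no read at all in 4 of the 8 high-dose zalfermin mice. All 8 high-dose zalfermin mice were thus within the range of the chow-fed mice.

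Ly6d was the most abundant of the 6 genes per length, with a mean of 119 CPM per kb of exon in DIO-MASH vehicle mice, against 18.4 for Cfd, 10.7 for Sdcbp2, 6.18 for Sprr1a, 2.97 for Shc2 and 2.29 for Insyn1. Chow-fed mice had 0.0768 to 1.95 CPM of Ly6d (median 0.978), and DIO-MASH vehicle mice 42.8 to 165 CPM (median 77.1). The lowest vehicle mouse was thus far above the highest chow-fed mouse. Low-dose zalfermin mice had 5.77 to 86.3 CPM (median 47.7) and low-dose semaglutide mice 1.41 to 80.2 CPM (median 52.1). High-dose semaglutide mice were spread from 1.68 to 52.2 CPM (median 24.6), whereas high-dose zalfermin mice kept close together, from 3.98 to 10.6 CPM (median 5.83). The high-dose zalfermin mice were all below vehicle and all above chow. Combination mice had 1.77 to 44.8 CPM (median 12.7), and 7 of the 8 were below every vehicle mouse.

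Cfd measured 0 to 3.02 CPM in chow-fed mice (median 0.177), where the high value came from mouse 5 alone, and 9.82 to 28.6 CPM in DIO-MASH vehicle mice (median 12.6). Both single agents at the low dose and semaglutide at the high dose gave similar, overlapping ranges. These were 4.70 to 14.6 CPM for low-dose zalfermin (median 6.16), 1.56 to 30.1 CPM for low-dose semaglutide (median 5.80) and 1.56 to 25 CPM for high-dose semaglutide (median 7.65). High-dose zalfermin mice had 0.754 to 7.18 CPM (median 1.99). Combination mice had 0 to 1.86 CPM (median 0.195), within the range of the chow-fed mice in every mouse, though 2 of the 8 were above all chow-fed mice but mouse 5.

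Shc2 measured 0 to 0.369 CPM in chow-fed mice (median 0.134) and 4.56 to 26 CPM in DIO-MASH vehicle mice (median 16.1). The low doses overlapped vehicle, with 1.76 to 14.2 CPM for zalfermin (median 8.89) and 0.117 to 19.9 CPM for semaglutide (median 9.10), as did high-dose semaglutide, with 0.886 to 16.2 CPM (median 6.32). High-dose zalfermin (0 to 3.22 CPM, median 2.08) and the combination (0.231 to 3.60 CPM, median 2.15) lay below every vehicle mouse. In each of these groups 7 of the 8 mice were still above the highest chow-fed mouse.

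Insyn1 measured 0 to 0.461 CPM in chow-fed mice (median 0.0971) and 3.27 to 8.99 CPM in DIO-MASH vehicle mice (median 4.82). It was the one gene of the 6 for which every low-dose semaglutide mouse (0.117 to 2.82 CPM, median 1.83) was below every vehicle mouse, while low-dose zalfermin mice ran from 0.271 to 5.12 CPM (median 2.78). The high doses and the combination were also below every vehicle mouse. They measured 0.219 to 3.24 CPM for high-dose semaglutide (median 1.07), 0.121 to 1.25 CPM for high-dose zalfermin (median 0.763) and 0.154 to 0.724 CPM for the combination (median 0.573).

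Sdcbp2 measured 0 to 14.8 CPM in chow-fed mice (median 0), where mouse 8 holds the top, and 3.22 to 21.5 CPM in DIO-MASH vehicle mice (median 15.8). Low-dose zalfermin mice had 1.76 to 10.7 CPM (median 5.45), low-dose semaglutide mice 0.117 to 17.7 CPM (median 8.42) and high-dose semaglutide mice 0.443 to 12.7 CPM (median 3.02). All these groups overlapped vehicle. High-dose zalfermin mice (0 to 0.936 CPM, median 0.245) and combination mice (0 to 0.682 CPM, median 0.138) were below every vehicle mouse.

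**Figure D1:**
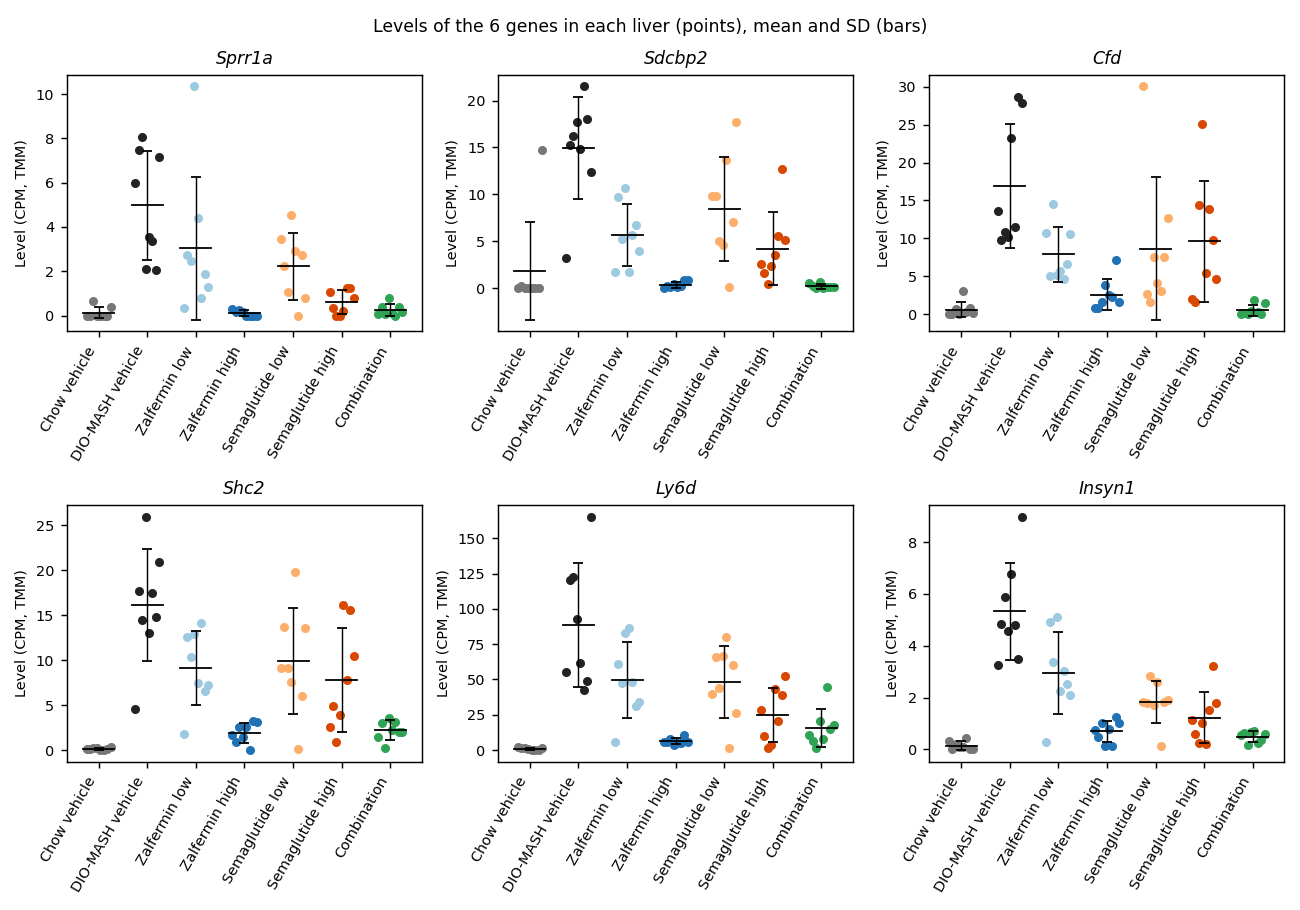
Each panel plots 1 gene, with the level in CPM on the y axis and the 7 groups on the x axis; points are single livers (8 a group), and bars give the mean and SD. DIO-MASH vehicle has the highest mean in every panel (88.7 ± 44.2 CPM for Ly6d), high-dose zalfermin and the combination sit near the bottom, and chow mouse 8 stands out for Sdcbp2.

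The order of the group means was alike at the top and differed below it. DIO-MASH vehicle had the highest mean for all genes. The lowest mean was that of chow for Shc2, Ly6d and Insyn1. It was that of high-dose zalfermin for Sprr1a (0.108 ± 0.125 CPM, SD, n = 8) and of the combination for Sdcbp2 (0.235 ± 0.256 CPM) and Cfd. By median, chow was lower than the combination for Sdcbp2 (0 against 0.138 CPM) and Cfd (0.177 against 0.195 CPM). Chow was also lower by median than high-dose zalfermin for Sprr1a (0 against 0.0736 CPM). Single mice raised the chow means, mouse 8 for Sdcbp2 (14.8 CPM, next 0.226 CPM) and mouse 5 for Cfd (3.02 CPM, next 0.828 CPM). The combination is therefore not read as below chow for these genes. For Ly6d the order ran from vehicle through low-dose zalfermin, low-dose semaglutide, high-dose semaglutide, combination and high-dose zalfermin to chow. Ranges of groups next to each other in these orders overlapped for every gene, apart from high-dose zalfermin and chow for Ly6d. In Cfd alone, high-dose semaglutide (9.60 ± 7.96 CPM) came second after vehicle (16.9 ± 8.19 CPM).

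On the log2 scale of the edgeR fit, chow-fed mice were lower than DIO-MASH vehicle mice by the widest margin for Shc2, with a log2 fold change of −6.85 ± 0.71 (SE), and Ly6d, −6.55 ± 0.69. Sprr1a stood at −5.78 ± 0.81, Insyn1 at −5.03 ± 0.55, Cfd at −4.87 ± 0.69 and Sdcbp2 at −3.07 ± 0.70. Without chow mouse 8 the value for Sdcbp2 was −8.14, a fitted value that rests on 3 reads, all in chow mouse 2, with the label series described below as a covariate it was −5.30, and without chow mouse 5 that for Cfd was −6.27. All 6 genes were called lower in chow, where the background was 28.9% of the 14105 genes called lower, and 5 of the 6 had every chow-fed mouse below every vehicle mouse, as 9.49% of all genes had. The genes were chosen from such contrasts, so these counts are no evidence about them. In whole liver, fewer cells of a type and less RNA per cell cannot be told apart.

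High-dose zalfermin and the combination gave the largest differences from vehicle among the treated groups. For high-dose zalfermin the log2 fold changes were −5.53 ± 0.78 for Sprr1a, −5.16 ± 0.83 for Sdcbp2, −3.81 ± 0.55 for Ly6d, −3.01 ± 0.48 for Shc2, −2.85 ± 0.43 for Insyn1 and −2.73 ± 0.56 for Cfd. For the combination they were −5.73 ± 0.86 for Sdcbp2, −5.20 ± 0.70 for Cfd, −4.13 ± 0.65 for Sprr1a, −3.36 ± 0.45 for Insyn1, −2.84 ± 0.47 for Shc2 and −2.54 ± 0.51 for Ly6d. Ly6d was further from vehicle in high-dose zalfermin and Cfd further in the combination. The difference between these groups is given with its test for Ly6d below and was not tested for Cfd, which the combination chose. All 6 genes were called lower in each, against 8.68% of all genes called lower in high-dose zalfermin and 10.9% in the combination. Every mouse lay below every vehicle mouse for 6 of the 6 genes in high-dose zalfermin, as for 2.47% of all genes, and for 5 of the 6 in the combination, as for 1.89%. Vehicle took part in choosing all 6 genes, and these 2 groups in choosing some of them. These counts are therefore no evidence about the genes.

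High-dose semaglutide was called lower than vehicle for 3 of the 6 genes, Sprr1a (−2.99 ± 0.58), Ly6d (−1.83 ± 0.49) and Insyn1 (−2.07 ± 0.40), where 1.0% of all genes were called lower. Sdcbp2 (−1.80 ± 0.62), Shc2 (−1.05 ± 0.42) and Cfd (−0.82 ± 0.50) were not called. Sprr1a and Insyn1 had every mouse below every vehicle mouse, as 0.255% of all genes had. Both were chosen by this comparison, and vehicle took part in choosing the others, so these counts are no evidence about the genes.

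At the low doses all 6 differences were negative and none was called. They ran from −1.38 ± 0.61 for Sdcbp2 to −0.76 ± 0.51 for Sprr1a in low-dose zalfermin, with 0.0496% of all genes called lower, and from −1.52 ± 0.39 for Insyn1 to −0.70 ± 0.42 for Shc2 in low-dose semaglutide, with 0% of all genes called lower by edgeR (1222 genes in either direction had an unadjusted p under 0.05, and DESeq2 called 32). Insyn1 in low-dose semaglutide was the one case with every mouse below every vehicle mouse, where 0.0425% of all genes had this, against 0 of the 6 genes and 0.0780% of all genes in low-dose zalfermin. Vehicle took part in choosing the genes here too, so the signs and counts are no evidence about them. Taking the low doses as additive on the log2 scale, the combination was lower than the sum of both by 3.55 ± 1.08 for Sdcbp2, 3.15 ± 0.88 for Cfd, 2.22 ± 0.84 for Sprr1a, 1.34 ± 0.62 for Shc2, 0.99 ± 0.59 for Insyn1 and 0.82 ± 0.68 for Ly6d. No p is given for these, since vehicle enters them, and they hold only if the combination was dosed as the methods state.

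**Figure D2:**
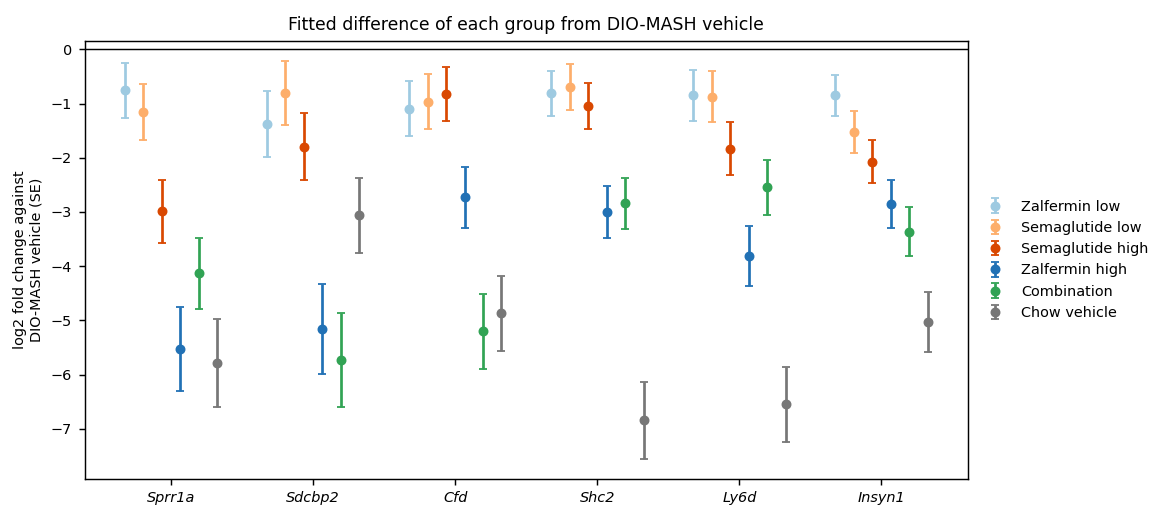
The y axis is the log2 fold change against DIO-MASH vehicle from the edgeR fit, with SE bars, for each gene on the x axis and each of the other 6 groups by colour (8 mice a group). Both low doses lie closest to 0 for all genes but Cfd, where high-dose semaglutide (−0.82) does, and high-dose zalfermin and the combination lie between −5.73 and −2.54.

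The treated groups were then compared directly, to ask whether dose, agent or combination changed the genes, and 30 such tests had neither group involved in choosing the gene. An adjusted p under 0.05 in edgeR's quasi-likelihood test, adjusted over all 14105 genes, was reached in 13 of the 30, each time with high-dose zalfermin or the combination as the lower group. Without low-dose semaglutide mouse 6 and low-dose zalfermin mouse 1, 14 of the 30 passed. Those mice were left out after their low values of these genes were seen, which by itself raises their groups, so this count is no added evidence. Over all genes, lower calls also rose, from 197 to 373 between the zalfermin doses and from 322 to 640 for the combination against low-dose semaglutide. The labels carry sample numbers, and mice with numbers near each other were grouped here into series A to D (22, 15, 16 and 3 mice). The labels name no such series and give no meaning for the numbers. The 13 differences were also computed within series A, B and C, since D held no treated mouse. Of these 39 values, 37 had the same sign as the difference over all mice.

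Raising the zalfermin dose lowered 3 of the 4 genes that could be tested, where 1.40% of all genes were called lower. Ly6d fell 7.82-fold from low-dose to high-dose zalfermin (log2 fold change −2.97 ± 0.54, adjusted p = 0.00124). Shc2 fell 4.59-fold (−2.20 ± 0.48, adjusted p = 0.00749) and Insyn1 4.01-fold (−2.0 ± 0.44, adjusted p = 0.00749). Cfd did not pass, at −1.63 with a 95% interval of −2.76 to −0.50 and an adjusted p of 0.134, although it passed when only these groups were fitted (adjusted p = 0.0183).

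Raising the semaglutide dose from 3 to 120 µg/kg changed none of the 4 genes tested by edgeR, with 0 of 4 at an unadjusted p under 0.05 and 0 called by DESeq2. The log2 fold changes were −0.99 for Sdcbp2 (95% interval −2.23 to 0.24), −0.95 for Ly6d (−1.91 to 0.01), −0.35 for Shc2 (−1.20 to 0.50) and 0.14 for Cfd (−0.87 to 1.15), all at an adjusted p of 0.999. These intervals leave room for a fall of several-fold in Sdcbp2 and Ly6d. No gene at all was called lower in this comparison (0% of all genes, with 549 in either direction at an unadjusted p under 0.05, and 0 called by DESeq2). The difference between the dose effects of zalfermin and semaglutide, a contrast added after seeing the data, was −2.01 ± 0.71 for Ly6d, −1.85 ± 0.64 for Shc2 and −1.77 ± 0.76 for Cfd, with 0 of 3 past the threshold in edgeR (adjusted p of 1, 3 of 3 at an unadjusted p under 0.05) and 0 in DESeq2.

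Between agents, the low doses did not differ detectably for any of the 6 genes in edgeR, with 0 of 6 at an unadjusted p under 0.05 and 0 called by DESeq2. The widest differences of low-dose zalfermin from low-dose semaglutide were 0.67 for Insyn1 (95% interval −0.11 to 1.45) and −0.58 for Sdcbp2 (−1.80 to 0.64). That for Sprr1a was 0.39 (−0.66 to 1.45) and that for Ly6d 0.03. These intervals are wide and leave room for a several-fold difference in Sdcbp2. Here too 0% of all genes were called lower (617 in either direction at an unadjusted p under 0.05, 0 called by DESeq2). At the high doses Shc2 was 3.90-fold lower with zalfermin than with semaglutide (−1.96 ± 0.48, adjusted p = 0.0385), 1 of 3 genes tested, where 0.312% of all genes were called lower. That call was lost without any 1 of 10 mice, high-dose zalfermin mice 1 to 6 and high-dose semaglutide mice 5 to 8, with adjusted p from 0.0523 to 0.133. Ly6d (−1.98 ± 0.53, adjusted p = 0.0652) and Cfd (−1.91, adjusted p = 0.112) did not pass. Ly6d passed in DESeq2 (adjusted p = 0.0317) and without low-dose zalfermin mouse 1, low-dose semaglutide mouse 6 or high-dose semaglutide mouse 3 or 4 (adjusted p from 0.0268 to 0.0478).

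The combination was lower than each single low dose for all 4 genes that could be tested. Against low-dose zalfermin, Sprr1a fell 10.4-fold (−3.37 ± 0.66, adjusted p = 0.000761), Insyn1 5.71-fold (−2.51 ± 0.45, adjusted p = 0.000313), Shc2 4.09-fold (−2.03 ± 0.47, adjusted p = 0.00432) and Ly6d 3.25-fold (−1.70 ± 0.50, adjusted p = 0.0262), where 3.35% of all genes were called lower. Against low-dose semaglutide, Sprr1a fell 7.89-fold (−2.98 ± 0.66, adjusted p = 0.00419), Shc2 4.43-fold (−2.15 ± 0.47, adjusted p = 0.00363), Insyn1 3.59-fold (−1.84 ± 0.46, adjusted p = 0.0111) and Ly6d 3.18-fold (−1.67 ± 0.50, adjusted p = 0.0404), where 2.28% were called lower. The calls of Sprr1a, Shc2 and Insyn1 held with each mouse left out, and those of Ly6d did not. The Ly6d call against low-dose zalfermin was lost without any 1 of low-dose zalfermin mice 2, 4 and 5 and combination mice 1, 2, 3 and 5 (adjusted p from 0.0505 to 0.0634). That against low-dose semaglutide was lost without any 1 of low-dose semaglutide mice 1, 2, 3, 4, 5 and 7 and combination mice 1, 2, 3, 5, 7 and 8 (adjusted p from 0.0532 to 0.0936).

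Against the high doses, the combination was lower than high-dose semaglutide for Shc2, 3.47-fold (−1.80 ± 0.47, adjusted p = 0.0274), and not detectably for Ly6d (−0.71, 95% interval −1.70 to 0.28, adjusted p = 0.551), where 1.03% of all genes were called lower. The Shc2 call was lost without any 1 of high-dose semaglutide mice 5 to 8 and combination mice 1 and 3 (adjusted p from 0.0508 to 0.104). The combination did not differ detectably from high-dose zalfermin for Shc2 (0.17, 95% interval −0.87 to 1.20), Insyn1 (−0.51, −1.52 to 0.50) or Ly6d (1.27, 0.19 to 2.34, adjusted p = 0.335). None of these 3 was called by edgeR or DESeq2, 1 had an unadjusted p under 0.05, and 0.177% of all genes were called lower.

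**Figure D3:**
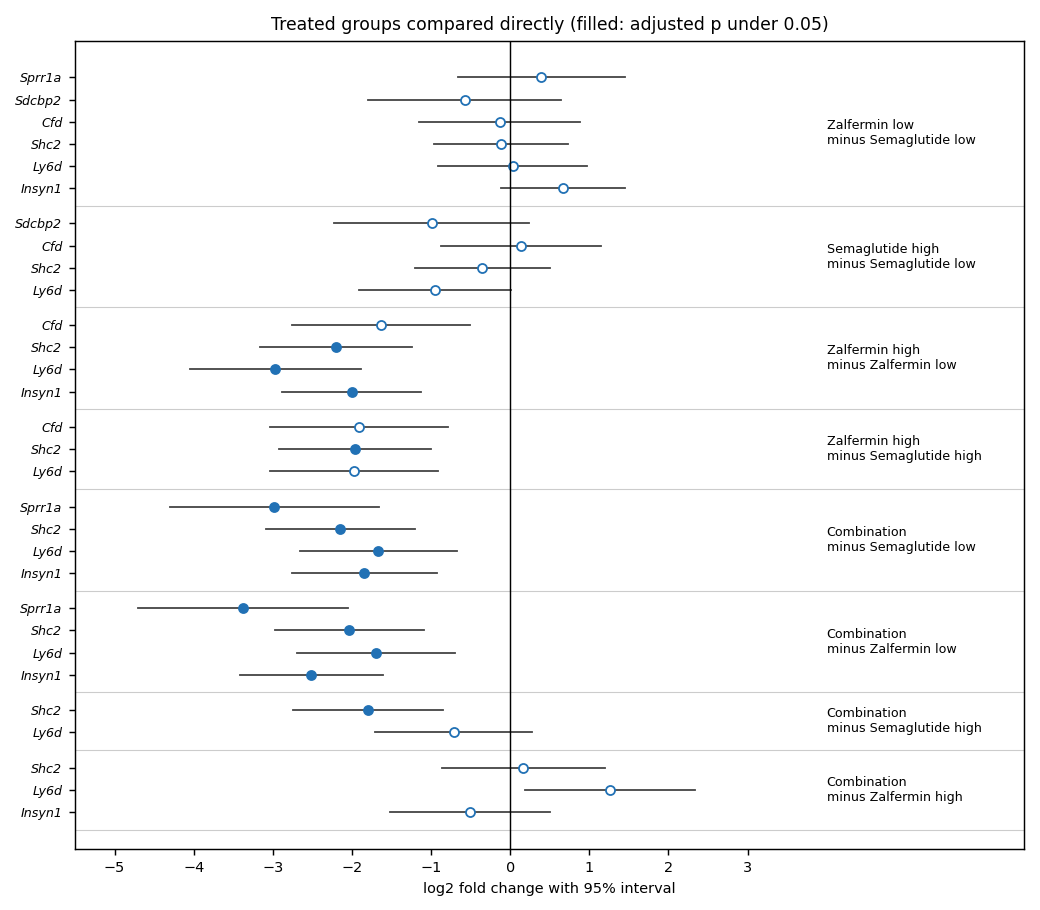
The x axis is the log2 fold change between treated groups with its 95% interval, and each line on the y axis is 1 of the 30 tests of a gene (8 mice a group). Filled points passed an adjusted p of 0.05 in edgeR; the 13 filled points all lie left of 0, and none lies in the comparisons of the low doses, of the semaglutide doses or of the combination with high-dose zalfermin.

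The genes varied widely from mouse to mouse within a group. Their biological coefficient of variation was 112% for Sdcbp2, 87.4% for Sprr1a, 85.7% for Cfd, 71.6% for Ly6d, 66.3% for Shc2 and 53.6% for Insyn1, against a median of 18.9% over all genes tested. All 6 were above the 90th percentile.

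To ask whether the same livers were high for several genes at once, the deviation of each of the 48 AMLN-fed mice from its group mean was correlated for all 15 pairs of genes (log2 CPM, prior count 2, 100000 permutations within groups, adjusted over the 15 pairs). All 10 pairs of the 5 genes other than Cfd passed, with Pearson's r from 0.48 to 0.76. The highest was that of Shc2 with Ly6d (r = 0.76, Spearman's rho = 0.60, permutation p of 1e-05 for r and 4e-05 for rho, adjusted p of 5e-05 and 0.0002), where 1e-05 is the smallest p these permutations can give. Shc2 with Sdcbp2 (r = 0.75, rho = 0.63) and Shc2 with Insyn1 (r = 0.73, rho = 0.63) had adjusted permutation p of 5e-05 for r and 0.00015 for rho. The link of Sprr1a with Ly6d had r = 0.69 and rho = 0.57. Many other genes followed as closely. Among the 14104 other genes ranked by r, Ly6d was at 33 for Sprr1a and Shc2 at 49 for Insyn1, whereas for Shc2 the ranks were 372 for Ly6d, 427 for Sdcbp2, 496 for Insyn1 and 2082 for Sprr1a.

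Weaker links were those of Sprr1a with Shc2 (r = 0.50, adjusted permutation p = 0.00617, but rho = 0.22 with adjusted p = 0.234) and with Sdcbp2 (r = 0.48, adjusted permutation p = 0.0118, but rho = 0.26 with adjusted p = 0.148). Leaving out the 2 mice farthest from the median of the first gene lowered these to 0.25 and 0.23, so they rest on those mice, and the 10 pairs then ran from 0.23 to 0.73. Without low-dose semaglutide mouse 6, 8 pairs passed, and without that mouse and low-dose zalfermin mouse 1, 7 passed. Cfd stood apart. Its 5 pairs had r from −0.11 to 0.15 and none passed, with the lowest adjusted permutation p at 0.534.

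**Figure D4:**
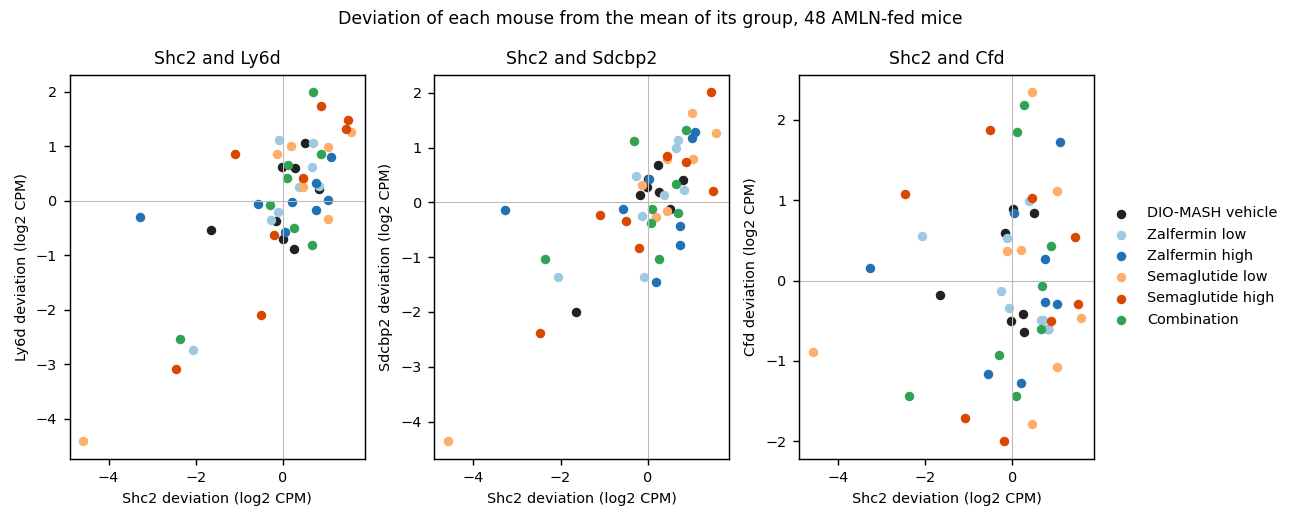
Each point is 1 of 48 AMLN-fed mice, coloured by group, and both axes give the deviation of log2 CPM from the group mean for the gene named. Points follow a rising line for Shc2 with Ly6d (r = 0.76) and Shc2 with Sdcbp2 (r = 0.75), where low-dose semaglutide mouse 6 lies at the lower left, and show no line for Shc2 with Cfd (r = 0.11).

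Marker lists of cell types that make these genes elsewhere were measured in the same livers. Of the 9 adipocyte markers, Lep was at 0 in all mice, Adipoq at 0 in 43 of the 56 and never above 0.624 CPM, and Plin1 at 0 in 42 and never above 0.312 CPM, while Cfd stood at 16.9 ± 8.19 CPM in vehicle mice. The summed adipocyte markers nevertheless ran from 18.6 to 46.3 CPM in chow, 130 to 271 CPM in vehicle and 23.8 to 64.7 CPM in the combination, a sum carried by Cidec, Fabp4 and Lipe, which fatty liver also expresses. Of the squamous epithelium markers, the basal keratin Krt5 was at 0 in 50 mice and never above 0.168 CPM, and Krt14 was at 0 in 48 and never above 0.243 CPM. The summed squamous list ran from 1.35 to 3.53 CPM in vehicle (median 2.51) and from 1.25 to 2.79 CPM in chow mice other than mouse 8, which had 12.8 CPM (median of all 8, 2.09), and these ranges overlapped.

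Summed Schwann cell and neuron markers also overlapped, at 0.605 to 1.77 CPM in vehicle and 0.312 to 1.96 CPM in chow. B cell markers summed to 2.44 to 51.3 CPM in vehicle and 0.870 to 5.44 CPM in chow, with Cd79a at up to 10.5 CPM. Mesothelial markers summed to 1.60 to 7.34 CPM in vehicle and 0.451 to 11.3 CPM in chow, with Msln never above 2.28 CPM and Upk3b never above 5.87 CPM. Of the pancreas markers Prss2 was at 0 in 51 mice and Cpa1 in 55, and of the stomach and gallbladder markers Gkn1 was at 0 in all 56 and Tff1 in 43.

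Summed cholangiocyte markers, a list for the bile duct epithelium, moved with the groups. The 7 markers summed to 33.1 to 62.4 CPM in chow mice other than mouse 8 (295 CPM), 195 to 598 CPM in vehicle and 57.3 to 250 CPM in the combination. The genes weigh unequally in this sum. In the chow mice other than mouse 8, Spp1 alone stood at 24.8 to 49.4 CPM, Krt19 at 0.832 to 4.21 CPM and Epcam at 1.18 to 4.13 CPM. Over all mice the medians of Krt19 and Epcam were 5.81 and 9.81 CPM, far below the vehicle sums. The sum is therefore not read as a measure of duct epithelium alone. Hepatocyte markers went the other way, at 146378 to 236246 CPM in chow, 60988 to 83660 CPM in vehicle and 84709 to 133318 CPM in the combination. Within groups, in a set of 18 relations chosen after seeing the data, the deviation of the cholangiocyte sum followed Shc2 (r = 0.83, rho = 0.67, adjusted permutation p of 6e-05 and 0.00018) and Sdcbp2 (r = 0.67, rho = 0.62, adjusted permutation p of 9e-05 and 0.00018) over the 48 AMLN-fed mice. Without the 2 mice farthest from the median of the gene, r was 0.75 and 0.56. Insyn1 (r = 0.57, rho = 0.38, adjusted permutation p of 0.00067 and 0.0226) also passed, Ly6d passed by r alone (r = 0.51, rho = 0.27, adjusted permutation p of 0.00188 and 0.114), and Sprr1a (r = 0.22, adjusted permutation p = 0.197) and Cfd (r = 0.08, adjusted permutation p = 0.688) did not pass. Cfd passed only with the adipocyte sum (r = 0.37, rho = 0.42, adjusted permutation p of 0.0212 and 0.0088), and r was 0.37 without the 2 farthest mice. Sdcbp2 (r = 0.74, rho = 0.64, adjusted permutation p of 6e-05 and 0.00018), Shc2 (r = 0.69, rho = 0.45, 0.00011 and 0.00565) and Insyn1 (r = 0.65, rho = 0.50, 0.00021 and 0.00266) also passed with that sum. Sprr1a (r = 0.44, rho = 0.28, adjusted permutation p of 0.00766 and 0.0985) and Ly6d (r = 0.42, rho = 0.15, 0.0114 and 0.381) passed by r alone, and their r was 0.20 and 0.21 without the 2 farthest mice. With the hepatocyte sum, r was −0.61 for Sdcbp2 (rho = −0.55, adjusted permutation p of 6e-05 and 0.00117), −0.58 for Ly6d (rho = −0.49, 0.00028 and 0.00373) and −0.48 for Shc2 (rho = −0.49, 0.00355 and 0.00366). Insyn1 (r = −0.30, adjusted permutation p = 0.081), Sprr1a (r = −0.26, 0.1215) and Cfd (r = −0.02, 0.889) did not pass with that sum. The part of these cell types in the levels of the 6 genes was not tested.

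**Figure D5:**
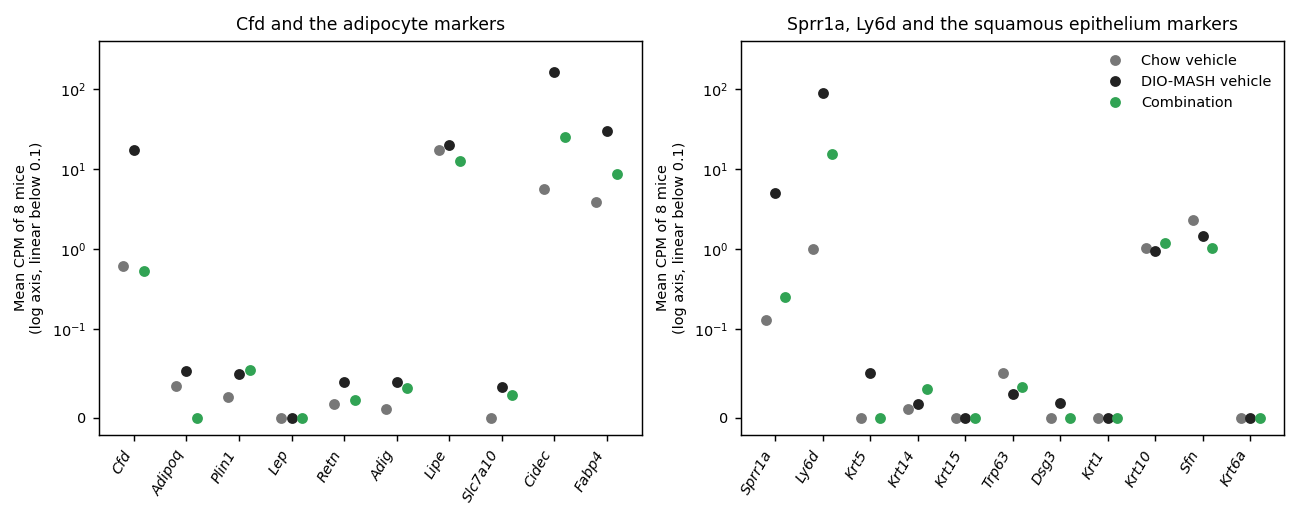
The y axis is the mean CPM of 8 mice (log axis, linear below 0.1) for chow, DIO-MASH vehicle and the combination, with Cfd beside the 9 adipocyte markers on the left and Sprr1a and Ly6d beside the 9 squamous epithelium markers on the right. Cfd stands at 16.9 CPM in vehicle while Adipoq, Plin1 and Lep stay below 0.1, and Ly6d at 88.7 CPM while Krt5 and Krt14 stay below 0.1.

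The genes most like each member over all 56 mice, by Pearson's r of log2 CPM, are given as a description, since the mice share the group differences that chose the members. Shc2 was closest to S100a11 (0.96), Ephb2 (0.95) and Anxa5 (0.95), Ly6d to S100a11 (0.94), Ehd4 (0.93) and Tgm2 (0.92), and Insyn1 to Sparc (0.93), Col3a1 (0.91) and Anxa5 (0.91). Sdcbp2 was closest to Kbtbd11 (0.90), Anxa2 (0.90) and Cgref1 (0.89), and Sprr1a to Psmd8 (0.88), Lgals1 (0.87) and Anxa2 (0.87). Cfd was closest to Cidea (0.87), a protein of the lipid droplet surface, Clstn3 (0.83) and Olig1 (0.80).

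Within groups, over the deviations of the 48 AMLN-fed mice, Shc2 was closest to Uap1l1 (0.92), Specc1 (0.91) and Pls1 (0.91), Insyn1 to Uap1l1 (0.82), Anxa5 (0.81) and Sparc (0.81), and Ly6d to Mtmr11 (0.89), Tgm2 (0.88) and Syt12 (0.87). Sdcbp2 was closest to Piezo1 (0.82), Col5a1 (0.81) and Golm1 (0.80), and Sprr1a to Ifi27l2b (0.79), Gstm3 (0.79) and Anxa2 (0.79). For Cfd the highest values were lower, with Rarres1 (0.65), Trappc6a (0.63) and Uck1 (0.58). With Spearman's correlation, 9 of the 18 names over all mice and 5 of the 18 within groups were the same.

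The relatives and partners of each gene were read from lists, with counts at an adjusted p under 0.05 in edgeR. Over all 14105 genes, 4072 were higher and 3739 lower in vehicle than in chow. In the combination against vehicle, 1417 of all genes were higher and 1536 lower. List counts near these shares say nothing particular about a list. Of the 18 Sprr and cornified envelope genes in the table, 2 passed the filter. Sbsn was higher (log2 fold change 2.09 ± 0.78, adjusted p = 0.0204) and Lor lower (−0.98 ± 0.33, adjusted p = 0.0109) in vehicle than in chow, and neither was called in the combination against vehicle. Sprr1b, the closest relative of Sprr1a, had a mean of 0.0159 CPM in vehicle and no read in 54 of the 56 mice. The level of Sprr1a was thus not shared by the rest of this list.

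Of the 23 Ly6 and uPAR family genes, 12 passed the filter and 8 were higher in vehicle than in chow, none lower. Ly6i (2.96 ± 0.81, adjusted p = 0.00173) and Ly6k (2.60 ± 0.89, adjusted p = 0.0111) rose most, though from levels under 0.1 CPM to 0.358 and 0.527 CPM. In the combination Ly6a was lower than in vehicle (−0.89, adjusted p = 0.00107), 1 gene by edgeR and 2 by DESeq2, and Cd59a was higher. Of the 9 Shc partners that passed, 3 were higher and 2 lower in vehicle than in chow, near the shares over all genes. Shc4 rose (2.22 ± 0.57, adjusted p = 0.000827) to 0.565 CPM, the ubiquitous Shc1 did not pass (−0.10 ± 0.08, adjusted p = 0.284) at 40.3 CPM in vehicle, and the Ras exchange factors Sos1 (−0.43 ± 0.13) and Sos2 (−0.27 ± 0.09) fell. In the combination against vehicle Nras was lower and none of the list higher by edgeR, and Shc3 did not pass the filter.

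Of the 10 genes of the syntenin list, 6 were higher and 2 lower in vehicle than in chow. The tetraspanin Cd63, a cargo of syntenin-1, rose (2.85 ± 0.40, adjusted p = 3.04e-08), as did the transcription factor Sox4 (2.44 ± 0.38, adjusted p = 3.25e-07) and Sdcbp itself, which encodes syntenin-1 (0.60 ± 0.10, adjusted p = 1.31e-06). The syndecans Sdc2 (−1.04 ± 0.13, adjusted p = 1.18e-09) and Sdc4 (−0.93 ± 0.21, adjusted p = 0.000168) fell. In the combination against vehicle 3 of the list were lower, Cd63 among them (−1.27 ± 0.36, adjusted p = 0.00886), and 3 higher, with Sdc2 (0.73 ± 0.13) and Sdc4 (0.62 ± 0.21) among them.

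Of the 11 alternative complement genes, 2 were higher and 5 lower in vehicle than in chow, while Cfd stood higher in vehicle. The receptors C3ar1 (2.82 ± 0.30, adjusted p = 5.27e-11) and C5ar1 (2.47 ± 0.35, adjusted p = 5.48e-08) rose, and C3 (−1.19 ± 0.17, adjusted p = 4.23e-08) and its regulator Cfi (−0.86 ± 0.13, adjusted p = 1.13e-07) fell. Cfb, the substrate of factor D, did not pass (−0.24 ± 0.19, adjusted p = 0.292). In the combination 3 of the list were higher than in vehicle, C3 (0.86 ± 0.17, adjusted p = 0.000141) and Cfi (0.49 ± 0.13, adjusted p = 0.00393) among them, and 0 lower by edgeR.

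Of the 8 genes of inhibitory synapses that passed the filter, 3 were higher and 2 lower in vehicle than in chow. These counts were near the shares over all genes. The GABA-A receptor subunit Gabra3 rose (2.23 ± 0.31, adjusted p = 2.29e-08). Gephyrin (Gphn, −0.79 ± 0.11, adjusted p = 1.23e-08) and the taurine transporter Slc6a6 (−0.56 ± 0.11, adjusted p = 2.3e-05) fell. In the combination against vehicle 2 of them were lower and 1 was higher.

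The lipid droplet list moved most uniformly. Of its 16 genes 13 were higher and 0 lower in vehicle than in chow by edgeR, led by Cidea (7.65 ± 0.62, adjusted p = 2.53e-14) and Cidec (4.86 ± 0.50, adjusted p = 1.52e-11), which coat and fuse lipid droplets. In the combination 10 were lower than in vehicle, with Cidea at −4.92 ± 0.47 and Cidec at −2.69 ± 0.44, and 1 was higher (Vldlr). Cidea was known from earlier results of these counts when the list was written.

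As medians over the list genes that passed the filter, the log2 fold change of chow against vehicle was −1.61 for the Ly6 and uPAR list, −0.92 for the lipid droplet list, −0.55 for the syntenin list, −0.25 for the inhibitory synapse list, 0.24 for the complement list and 0.098 for the Shc list. In the combination against vehicle these medians were −0.50, −0.66, −0.23, −0.13, 0.26 and 0.17 in the same order. Over all 14105 genes the median was −0.0072 in chow and −0.0261 in the combination. The Ly6 and lipid droplet lists thus lay furthest below the median gene in both comparisons.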

How the data were processed

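Liver RNA of 56 mice was sequenced by the authors, and the deposited table holds raw read counts per gene with no normalization. The authors' methods name a stranded mRNA kit and STAR alignment to GRCm38, while the submitters' processing notes name Trim Galore 0.6.4, Salmon 1.9.0 and GRCm38. The counting program is not given in the sources used here. Samples were grouped by their labels, and each column of the table belongs to 1 mouse.

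A gene was kept where at least 3 mice had at least 5 reads (14105 of 21935). The test was that of edgeR 4.0.16 under R 4.3.3, with TMM scaling, 1 quasi-likelihood fit of all 7 groups, two-sided tests and Benjamini-Hochberg adjustment over all genes kept, at a threshold of 0.05. SE was the log2 fold change divided by the square root of its F statistic. Log2 CPM used a prior count of 2. Correlations and their permutations were computed with NumPy 2.4.6 in Python 3.11.15. Gene models came from the GENCODE copy of GRCm38, and promoters from RefSeq.

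The genes and the lists were chosen with earlier results of these data known. Genes named besides the 6 were the 3 most correlated with each, the 2 largest rises and falls of each list, close relatives, and the first 2 markers of each cell type. Some genes that this rule names are not reported here. Tff2, Krt19, Epcam and the other genes of chow mouse 8, Prtn3, Fstl3, Cfb, Nras, Lep, Vldlr, Cd59a and Ly6a were named after their values were seen.

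Alternatives were DESeq2 1.42.0, its size factors, other filters, the number series as a covariate, fits of only the groups compared, and each mouse left out in turn. Steps were tested on simulated counts. No 2 mice of a group had copied columns (chi-square per degree of freedom of 7.57 or more).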

Additional observations from a re-analysis of the deposited data

Results flagged for a closer look

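Of 42 sets of 8 values in CPM (6 genes in 7 groups), 7 held a mouse far from the others by Dixon's test. Its rate of about 1 in 20 holds for normally spread values, which CPM values with many near 0 need not be. The count of 7 is therefore not read as an excess. Sprr1a stood at 10.4 CPM in low-dose zalfermin mouse 4, against 4.42 CPM in the next mouse. Sdcbp2 stood at 14.8 CPM in chow mouse 8, against 0.226 CPM, and at 12.7 CPM in high-dose semaglutide mouse 7, against 5.56 CPM. Cfd stood at 3.02 CPM in chow mouse 5, against 0.828 CPM, and at 30.1 CPM in low-dose semaglutide mouse 1, against 12.7 CPM. Ly6d stood at 44.8 CPM in combination mouse 6, against 20.3 CPM. Insyn1 stood at 0.117 CPM in low-dose semaglutide mouse 6, below the 1.71 CPM of the next mouse.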

How the results depend on the processing

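No paired analysis was possible because the labels give no replicate numbers that groups share. Of the 13 direct differences, 9 kept their call with each of the 56 mice left out, and the number passing ran from 10 (without combination mouse 1) to 14 (without low-dose zalfermin mouse 1). The 4 lost at least once were Shc2 between the high doses (10 mice, adjusted p up to 0.133), Shc2 of the combination against high-dose semaglutide (6 mice, up to 0.104), and Ly6d of the combination against low-dose zalfermin (7 mice, up to 0.0634) and low-dose semaglutide (12 mice, up to 0.0936). Fitting only the groups compared lost 3 of these 4, all but Ly6d against low-dose zalfermin, and gained Cfd between the zalfermin doses. Leaving out combination mouse 4 moved Sprr1a to −3.97 against low-dose zalfermin and −3.58 against low-dose semaglutide, and leaving out low-dose zalfermin mouse 4 moved the former to −2.77. Against vehicle, Cfd stood at −1.58 in low-dose semaglutide without mouse 1 and at −5.91 in the combination without mouse 5, and Sprr1a at −1.36 in low-dose zalfermin without mouse 4. The median of the 6 genes in chow ran from −6.62 to −5.17 with single mice left out.

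Differences near 0 changed sign. Between the low doses, with single mice left out, Sprr1a ran from −0.21 to 0.64, Cfd from −0.33 to 0.49, Shc2 from −0.30 to 0.093 and Ly6d from −0.15 to 0.21, and Ly6d was −0.094 with the number series as a covariate. Between the semaglutide doses Cfd ran from −0.25 to 0.77, and Shc2 of the combination against high-dose zalfermin from −0.0041 to 0.35. The r of Cfd with Ly6d became 0.0048 with a prior count of 0.5.

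Counts of all genes called lower moved more than those of the 6 genes. With DESeq2 they were 2 in low-dose semaglutide (0 by edgeR) and 244 in high-dose semaglutide (141) against vehicle, 100 between the high doses (44), and 56 (25) and 218 (145) for the combination against zalfermin and semaglutide at their high doses. For 2 Ly6 family genes DESeq2 gave a lower call in the combination (1 by edgeR). Fits of only the groups compared gave 34 in low-dose zalfermin against vehicle (7 in the fit of all groups), and for the combination 187 against low-dose semaglutide (322), 8 against high-dose zalfermin and 72 against high-dose semaglutide. The number series gave 11 in low-dose zalfermin and 41 for the combination against high-dose zalfermin, where no filter gave 14. With 1 mouse left out, or both low mice, the counts ran from 1 to 17 in low-dose zalfermin, 0 to 1 in low-dose semaglutide and 21 to 335 in high-dose semaglutide against vehicle, from 92 to 373 between the zalfermin doses, from 18 to 89 between the high doses, and for the combination from 208 to 640, 3 to 39 and 68 to 197 against low-dose semaglutide, high-dose zalfermin and high-dose semaglutide. The causes were not tested. At 1 read per 0.0479 to 0.191 CPM, the levels near 0 rest on few reads.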

Other observations

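Within groups, the 5 genes other than Cfd were lowest together in 2 mice whose marker sums also lay at the edge of their groups. Low-dose semaglutide mouse 6 had a cholangiocyte sum of 40.2 CPM, where the next lowest mouse had 104 CPM, and the highest hepatocyte sum of its group, 113256 CPM. Low-dose zalfermin mouse 1 had the lowest cholangiocyte sum of its group, 96.8 CPM, and the highest hepatocyte sum, 104817 CPM. Other lists lay at the edge too. The adipocyte sum was lowest in both mice (45.7 CPM, next 128, and 75.7 CPM, next 121), as was the B cell sum (1.52 CPM, next 3.30, and 1.63 CPM, next 4.04). The pancreas sum was highest in both (13.6 and 16.4 CPM). The pattern was thus not particular to the cholangiocyte and hepatocyte lists, and its cause was not tested. Chow mouse 8 also had 109 CPM of Cyp2b10, a xenobiotic-induced cytochrome, against 1.08 to 5.50 CPM in the other 7 chow-fed mice.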
